A study of Mus musculus with 32 samples.

Results

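The collagen chain genes are the genes whose symbol is Col, a type number, the letter a and a chain number. Of the 19938 genes that the platform's annotation names alone on a probe set, 44 had such a symbol, on 46 of the 35556 probe sets. Where a gene had more than 1 probe set, the brightest by its mean over the 32 arrays was taken, which set aside a dimmer probe set of Col6a5 and of Col6a6. RNA came from blood and from cerebellum of the same mice, with 1 Affymetrix Mouse Gene ST array for each mouse and tissue. The first experiment used 5 Fmr1-KO mice, in which the gene for FMRP, a repressor of translation, is inactivated, and their controls were 5 WT mice (Fmr1 WT), all on a congenic C57BL/6 background. The second used 3 Tsc2+/- mice, which carry a single working copy of the gene for tuberin, a brake on mTORC1, and their controls were 3 WT mice (Tsc2 WT), all of a mixed 129/SvJae and C57BL/6J background. All mice were young adults, both mutations were constitutive, and the sources disagree on the sex of the mice. Values are normalized intensities on the linear scale, and differences are on the log2 scale.

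Collagens are the trimeric proteins of the extracellular matrix, wound from 3 alpha chains that share a repeated glycine motif. The fibrillar chains build the cables of connective tissue, the fibril associated chains decorate these cables, and type IV chains form the mesh of basement membranes. Type VI forms beaded filaments, type VIII a hexagonal lattice, and multiplexins such as type XVIII carry sugar chains and sit in basement membranes. Brain tissue holds little fibrous matrix: in cerebellum these chains are known from the meninges, the walls of vessels and the choroid plexus, while circulating blood cells make almost none.

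Of the 44 genes, 35 matched the RefSeq promoter table (GRCm38.p6). The stretches of 30 bases with the most motif letters, within 120 bases before the start, are shown for those of the 4 genes with the greatest measured difference between tissues that the table holds; Col12a1 was not matched. Capitals mark CCTCCC or GGGCGG, on either strand, with no overlap between matches.
Col18a1, chr10:77166568-77166597, minus strand: agagccCCGCCCatcgagctgtctCCGCCC
Col8a1, chr16:57754798-57754827, minus strand: agctccacgggggcagcCCGCCCgCCGCCC
Col1a2, chr6:4505529-4505558, plus strand: gccacgtcCCTCCCccctcggctcCCTCCC
Within 120 bases before the start and on either strand, CCTCCC lay in 24 of 38 collagen promoters and in 24.8% of all 32851. The motif GGGCGG lay in 18 of 38 collagen promoters and in 26.5% of all 32851. CCAAT lay in 6 of 38 collagen promoters and in 21.3% of all 32851, and TATAAA lay in 3 of 38 collagen promoters and in 6.34% of all 32851. Col18a1 has a second start in the table, which is not shown. These are matches of letters only. Col4a1 and Col4a2 start head to head on chromosome 8, and their first 22 bases lie opposite each other.

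Most collagen chains gave low signals. Olfactory receptor genes, which neither tissue should express, served as a measure of background on 1023 probe sets. Their median intensity was 46.0 to 93.1 and their 95th percentile 138 to 272 on 15 of the 16 cerebellum arrays; on the blood arrays the median was 52.0 to 77.1 and the 95th percentile 165 to 279. The array of Fmr1-KO mouse 1 stood apart in cerebellum, with an olfactory median of 178 and a 95th percentile of 578, and 31 of the 44 chains had their highest cerebellum value there. A gene was counted as above background in a group where it exceeded the 95th percentile on every array of the group. That held for 4 chains in Fmr1-KO cerebellum and 25 in Fmr1 WT cerebellum, and for 25 in Tsc2+/- cerebellum and 26 in Tsc2 WT cerebellum. Without the array of Fmr1-KO mouse 1, 20 chains lay above background on all 15 cerebellum arrays, namely Col11a2, Col12a1, Col13a1, Col17a1, Col18a1, Col1a1, Col1a2, Col22a1, Col23a1, Col26a1, Col27a1, Col2a1, Col6a1, Col6a4, Col6a5, Col6a6, Col7a1, Col9a1, Col9a2 and Col9a3. In blood 6 chains did so on all 16 arrays, namely Col1a1, Col27a1, Col2a1, Col6a1, Col6a4 and Col7a1. The share of all probe sets above the limit was not computed, so these counts cannot be read as particular to the chains. In Fmr1 WT cerebellum the median of all probe sets lay near the limit, at 203 against 169 in mouse 1 and 217 against 227 in mouse 3. Fmr1 checked the labels: its intensity was 142, 306, 283, 289.6 and 284 in Fmr1-KO cerebellum and 837, 868, 917, 832 and 833 in Fmr1 WT cerebellum. Tsc2 was lower in Tsc2+/- cerebellum, at 713, 754 and 999.5, than in Tsc2 WT cerebellum, at 1125, 1176 and 1109.6, but the Tsc2+/- and Tsc2 WT blood arrays overlapped. All 9 measured markers of cerebellar neurons were higher in cerebellum and all 10 of blood cells lower, in both experiments.

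The chains with the greatest measured differences between cerebellum and blood were Col18a1, Col12a1, Col1a2 and Col8a1. In blood none of the 4 exceeded the background limit on every array of any group, so the sizes and the order of their differences rest largely on blood values at or near background. Folds written as at least set the cerebellum mean against, on each blood array, the higher of the background limit and the chain's own value. They hold for the deposited scaling only, and cerebellum values under their own array's limit were kept in the mean. In the Fmr1 experiment 27 of the 44 chains were called at an adjusted p under 0.05, and all 27 were higher in cerebellum. Of all 35556 probe sets 71.8% were called there, 51.8% higher and 20.0% lower. The median difference of the chains was 0.36, against 0.52 over all probe sets. In the Tsc2 experiment 14 chains were called, 12 higher and 2 lower, where 57.4% of all probe sets were called, 31.0% higher and 26.4% lower. The median there was 0.15 for the chains and 0.03 over all probe sets. The scaling of the arrays changed the sign of 14 of the 27 differences called in the Fmr1 experiment, all 14 with each array centred on its median and 4 of them also with olfactory centring, and of none of the 14 called in the Tsc2 experiment. Median centring called 6 chains higher and 21 lower in the Fmr1 experiment. Of the 27 called on the deposited values 10 were among them, the 6 higher ones and 4 of the lower ones. For the Tsc2 experiment it called 18, 7 higher and 11 lower, with 9 of the 14 among them. Quantile normalization within each tissue gave 20 higher and 1 lower in the Fmr1 experiment, with 31 higher and 0 lower in the Tsc2 experiment. These scalings moved the median of all probe sets: in the Fmr1 experiment it was 0.52 as deposited, -0.03 with median centring and 0.24 with olfactory centring, and in the Tsc2 experiment 0.03, -0.17 and 0.11. Centring on the olfactory receptors gave 7 higher and 3 lower in the first and 22 higher and 2 lower in the second. In the Fmr1 experiment these 7 were the only ones of the 27 called on the deposited values that kept their call. Col18a1, Col12a1, Col1a2, Col4a1 and Col4a6 were called higher in both experiments under all 4 scalings, and no chain was called lower under all of them. Of these, Col4a6 exceeded the background limit on no array of either tissue. In bulk RNA, a greater share of the cells that make a chain and more of its RNA per cell cannot be told apart.

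**Figure D1:**
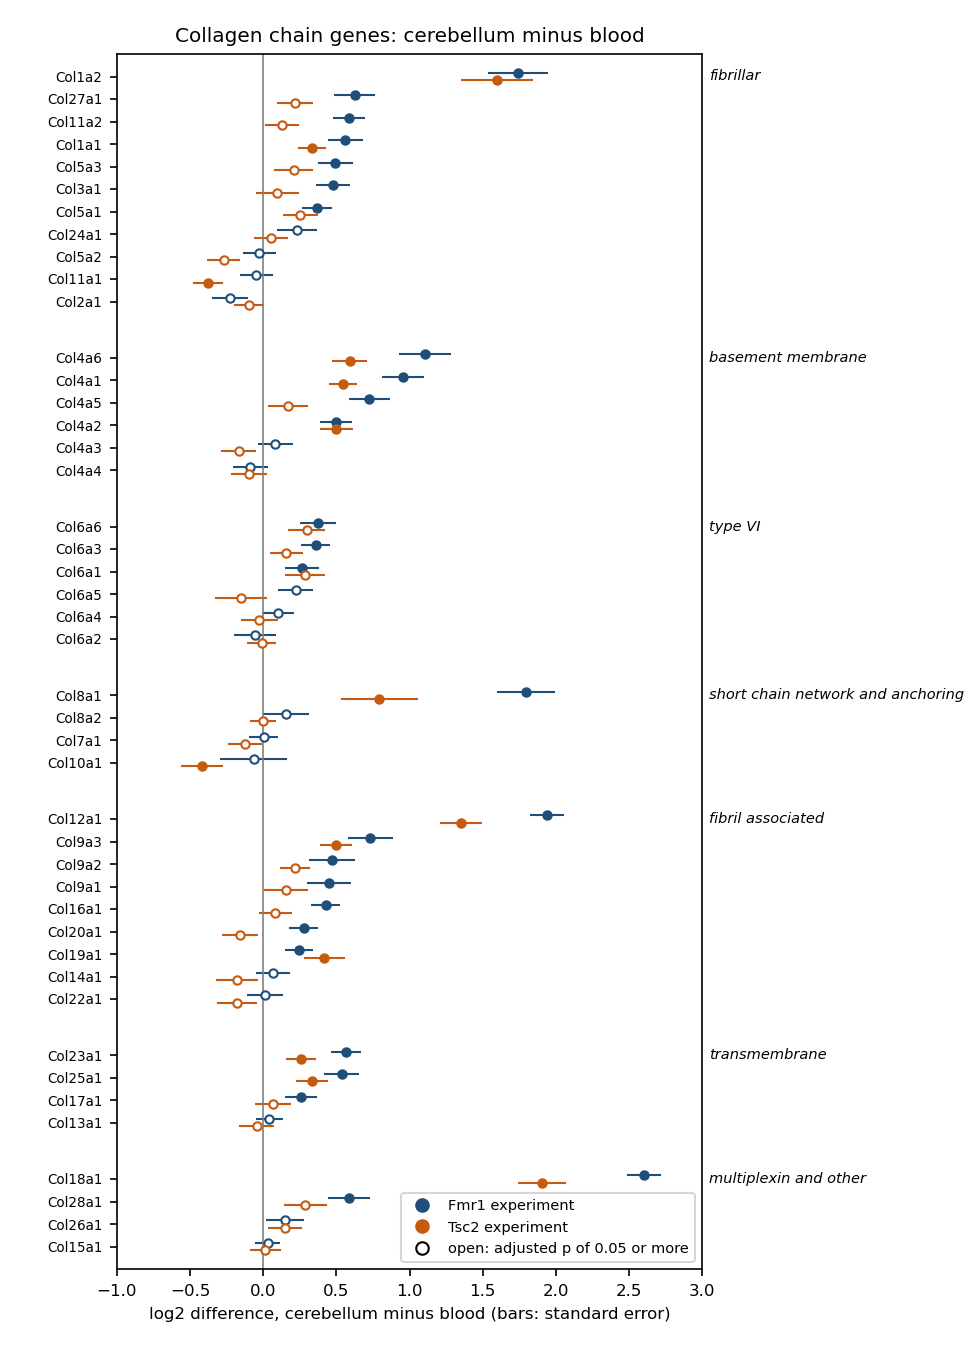
Log2 difference of each of the 44 collagen chain genes, cerebellum minus blood, grouped by collagen class, with the standard error as a bar; blue is the Fmr1 experiment, orange the Tsc2 experiment, and filled points have an adjusted p under 0.05. Col18a1 lies farthest right in both, at 2.60 in the Fmr1 and 1.91 in the Tsc2 experiment.

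Col18a1, whose C-terminal part is cleaved to the vessel inhibitor endostatin, had the greatest measured difference between the tissues. Its intensity ran from 304 to 502 (median 454) on the 10 cerebellum arrays of the Fmr1 experiment and from 52.7 to 101 (median 70.0) on the 10 blood arrays. In the Tsc2 experiment the 6 cerebellum arrays gave 374 to 481 (median 455) and the 6 blood arrays 84.1 to 167 (median 117). The tissues did not overlap in either experiment. The difference was 2.60 ± 0.12 (SE) in the Fmr1 experiment (limma adjusted p = 2.06e-13) and 1.91 ± 0.16 (SE) in the Tsc2 experiment (adjusted p = 1.20e-06). None of the 16 blood arrays exceeded the background limit, so Col18a1 was at least 2.07-fold higher in cerebellum of the Fmr1 experiment and at least 2.43-fold higher in that of the Tsc2 experiment. The lowest cerebellum values were those of Fmr1 WT mouse 1, at 304, and Fmr1-KO mouse 1, at 326; the second is the array on which background was highest. Of the other multiplexin, Col15a1, cerebellum and blood could not be separated: the difference was 0.03 ± 0.09 (SE) and 0.01 ± 0.11 (SE) in the Fmr1 and the Tsc2 experiment. Col15a1 exceeded the background limit on 0 of 10 cerebellum and 1 of 10 blood arrays in the first. In the second it did so on 1 of 6 and 0 of 6.

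Among fibrillar chains Col1a2 stood apart from its usual partner. Type I collagen is mostly a trimer of 2 chains from Col1a1 and 1 from Col1a2, and it is the main fiber of meninges and of vessel adventitia. Col1a2 was measured at 394 to 636 (median 545) in cerebellum and 116 to 481 (median 130.1) in blood of the Fmr1 experiment. In the Tsc2 experiment it was 446 to 547 in cerebellum and 100.4 to 253 in blood. A single blood array, that of Fmr1-KO mouse 4, reached into the cerebellum range. The differences were 1.74 ± 0.21 (SE) and 1.60 ± 0.25 (SE) in the Fmr1 and the Tsc2 experiment, with adjusted p = 3.70e-07 and 1.78e-04. Of the blood arrays 3 of 10 and 3 of 6 exceeded the background limit, which makes Col1a2 at least 2.29-fold higher in cerebellum in the Fmr1 experiment and at least 2.37-fold higher in the Tsc2 experiment. Col1a1, above the limit on every array, differed by 0.56 ± 0.12 (SE) and 0.33 ± 0.10 (SE). Both calls were lost with arrays centred on the median, and the first also with olfactory centring. It was 365 to 709.5 in cerebellum and 265 to 534 in blood of the Fmr1 experiment, so the tissues overlapped.

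Of the other fibrillar chains, Col27a1, Col11a2, Col5a3, Col3a1 and Col5a1 were called higher in cerebellum in the Fmr1 experiment, by 0.62, 0.59, 0.49, 0.48 and 0.37, and none of these 5 was called in the Tsc2 experiment. Col3a1, Col5a1 and Col5a3 changed sign with arrays centred on the median and lost their calls with olfactory centring. Of these, Col5a3 exceeded the background limit on 2 of 10 cerebellum arrays and 0 of 10 blood arrays of the Fmr1 experiment. The calls of Col27a1 and Col11a2 were lost with arrays centred on the median or on olfactory receptors. Col3a1, the chain of type III collagen of soft tissues and vessels, was 219 to 332 in cerebellum and 120.1 to 251 in blood of the Fmr1 experiment, so the tissues overlapped. Col11a1, which nucleates thin fibrils in cartilage, was called lower in cerebellum of the Tsc2 experiment, with a difference of -0.38 ± 0.10 (SE) (adjusted p = 0.00756), a call lost with quantile normalization within tissues, while in the Fmr1 experiment it gave -0.05 ± 0.11 (SE). The cartilage chain Col2a1 was not called in either.

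Col12a1, a fibril associated chain that bridges type I fibrils to other matrix, had the next greatest measured difference in the Fmr1 experiment. Its cerebellum intensity was 301 to 395 and its blood intensity 63.6 to 140.0 in the Fmr1 experiment. In the Tsc2 experiment it was 281 to 322 in cerebellum and 87.0 to 163 in blood. The tissues did not overlap, and the differences were 1.94 ± 0.11 (SE) and 1.35 ± 0.14 (SE) in the Fmr1 and the Tsc2 experiment. With none of the 16 blood arrays above the background limit, Col12a1 was at least 1.65-fold higher in cerebellum in the first and at least 1.65-fold higher in the second. The other members of its class had smaller differences. Col9a3, a chain of the cartilage collagen type IX, had 370.0 to 525 in cerebellum and 143 to 389 in blood of the Fmr1 experiment; its differences of 0.73 and 0.50 were called in both experiments, the first lost with arrays centred on the median or on olfactory receptors. Col19a1 was called in both, by 0.25 and 0.42, but the first changed sign with either centring. It exceeded the background limit on no blood array, and on 1 of 10 and 1 of 6 cerebellum arrays in the Fmr1 and the Tsc2 experiment. Col9a1, Col9a2, Col16a1 and Col20a1 were called in the Fmr1 experiment alone, by 0.45, 0.47, 0.43 and 0.28, and all 4 changed sign with arrays centred on the median. Of these, Col20a1 exceeded the background limit on 2 of 10 cerebellum arrays and 0 of 10 blood arrays there.

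**Figure D2:**
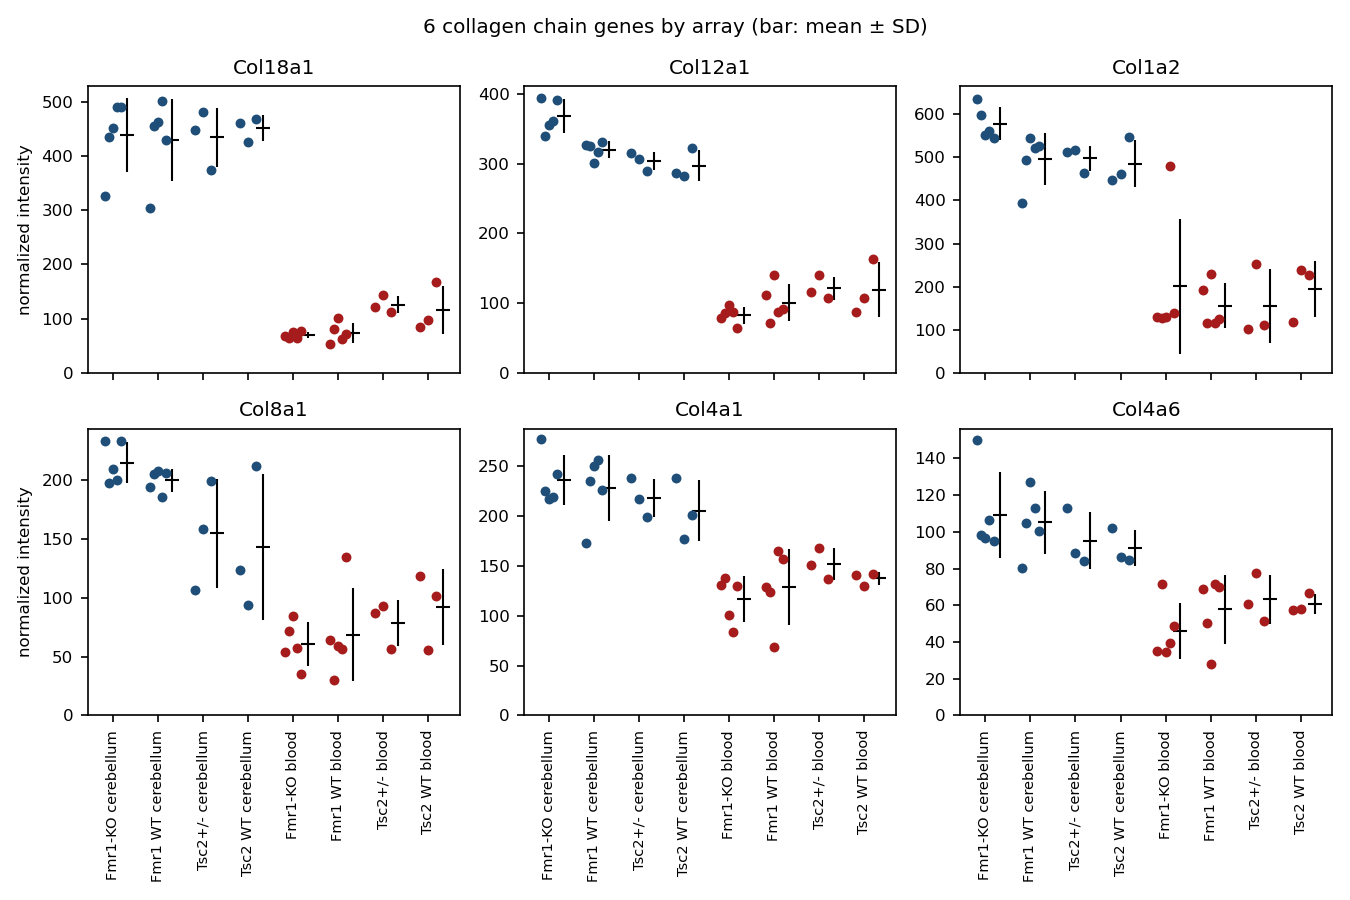
Normalized intensity (linear axis from 0) of Col18a1, Col12a1, Col1a2, Col8a1, Col4a1 and Col4a6 on every array, by group, cerebellum in blue and blood in red, with the mean ± SD of each group as a black bar. Col18a1 and Col12a1 lie higher on every cerebellum array than on any blood array; for Col1a2 the blood array of Fmr1-KO mouse 4 reaches 481.

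The basement membrane chains comprise a broadly used pair and more restricted ones, and only the pair exceeded the background limit on any cerebellum array. Col4a1 and Col4a2 form the type IV trimer found in nearly every basement membrane, that of brain capillaries included. Col4a1 was 173 to 277 in cerebellum and 68.4 to 165 in blood of the Fmr1 experiment, and 177 to 238 and 130.3 to 168 in those of the Tsc2 experiment. The tissues did not overlap in either. Its difference was 0.95 ± 0.14 (SE) in Fmr1 mice and 0.55 ± 0.10 (SE) in Tsc2 mice. No blood array exceeded the background limit for Col4a1, while 8 of 10 and 6 of 6 cerebellum arrays did in the Fmr1 and the Tsc2 experiment. On the deposited scaling it was at least 1.11-fold and at least 1.16-fold higher in cerebellum of these. The first is no firm bound: it is 0.15 on the log2 scale, and median centring lowered that difference from 0.95 to 0.41. Col4a2 differed by 0.50 ± 0.11 (SE) and 0.50 ± 0.11 (SE). The first changed sign with arrays centred on the median and lost its call with olfactory centring. Col4a6, which with Col4a5 builds a network known from smooth muscle and some epithelia, was dim, at 80.3 to 150.1 in cerebellum and 28.0 to 71.4 in blood of the Fmr1 experiment. It exceeded the background limit on no array of either tissue in either experiment. Its differences, 1.11 ± 0.18 (SE) and 0.59 ± 0.12 (SE), thus lie between signals within the background range, and the limits give no fold above 1. Col4a5 was called in the Fmr1 experiment alone, by 0.73 ± 0.14 (SE), against 0.17 ± 0.14 (SE) in the Tsc2 experiment. It exceeded the background limit on no array of either tissue, and its call was lost with arrays centred on the median, at 0.18. Col4a3 and Col4a4, known from kidney and lung, were called in neither experiment and exceeded the background limit on no cerebellum array.

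Type VI chains showed small differences between the tissues. Col6a1, Col6a3 and Col6a6 were called in the Fmr1 experiment, by 0.26, 0.36 and 0.37, each changed sign with arrays centred on the median, and no type VI chain was called in the Tsc2 experiment. Col6a3 exceeded the background limit on no array of the Fmr1 experiment. Col6a2, which pairs with Col6a1 in the trimer, gave -0.06 ± 0.14 (SE) and -0.01 ± 0.10 (SE), with a single high blood value of 425 in Fmr1-KO mouse 5. Col28a1, a chain that resembles those of type VI, was called in the Fmr1 experiment alone, by 0.58. It exceeded the background limit on no array of either tissue, and its call was lost with arrays centred on the median or on olfactory receptors. Among transmembrane chains Col17a1, the hemidesmosome chain of skin, was called in the Fmr1 experiment alone, by 0.26, and changed sign with arrays centred on the median or on olfactory receptors. Col23a1 and Col25a1 were called in both experiments, by 0.57 and 0.54 in the Fmr1 experiment and by 0.26 and 0.33 in the Tsc2 experiment. Of these, the call of Col23a1 was lost in 10 of 18 alternatives in the Tsc2 experiment, where its adjusted p was 0.0489, and with both centrings in the Fmr1 experiment, and that of Col25a1 was lost in 6 of 18 in the Tsc2 experiment. Col25a1, whose shed part binds amyloid deposits, exceeded the background limit on no blood array. In cerebellum it did so on 0 of 10 arrays of the Fmr1 experiment and 1 of 6 of the Tsc2 experiment. In the Fmr1 experiment Col25a1 changed sign with arrays centred on the median. The hypertrophic cartilage chain Col10a1 was lower in cerebellum of the Tsc2 experiment, with a difference of -0.42 ± 0.14 (SE) (adjusted p = 0.0251), a call also lost with quantile normalization within tissues, and gave -0.07 ± 0.23 (SE) in the Fmr1 experiment.

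Col8a1 did not overlap between the tissues in the Fmr1 mice and did in the Tsc2 mice, and in none of the 8 groups did it exceed the background limit on every array. Type VIII collagen is a short-chain lattice made by endothelial and smooth muscle cells. Col8a1 was 234, 198, 209.5, 200.3 and 234 in Fmr1-KO cerebellum and 194, 205, 208, 186 and 207 in Fmr1 WT cerebellum, and 29.9 to 135 on the 10 blood arrays. These cerebellum values span a narrow range and none reaches down to blood, but 6 of the 10 cerebellum arrays and 0 of the 10 blood arrays exceeded the background limit, and the limits give no fold above 1. In the Tsc2 experiment it was 107, 158 and 199.7 in Tsc2+/- cerebellum and 124, 93.8 and 213 in Tsc2 WT cerebellum, with 56.0 to 119 in blood, so some cerebellum values lay within the blood range. The difference between tissues was 1.80 ± 0.20 (SE) in the Fmr1 experiment (adjusted p = 1.18e-07) and 0.79 ± 0.27 (SE) in the Tsc2 experiment (adjusted p = 0.0238); the second call was lost with arrays centred on the median and without Tsc2+/- mouse 2 or Tsc2+/- mouse 3.

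The cerebellum arrays low in Col8a1 were also low in choroid plexus genes. Ttr, the thyroxine carrier that choroid plexus secretes, was 391, 11662 and 12343 in Tsc2+/- cerebellum and 5634, 148 and 10953 in Tsc2 WT cerebellum, mouse 1 to mouse 3, against 11082 to 14685 on the 10 cerebellum arrays of the Fmr1 experiment. Kl, which encodes klotho, was 192, 1731 and 2042 on the same Tsc2+/- arrays and 863, 121 and 2502 on the Tsc2 WT ones. The 10 measured choroid plexus markers summed to 2840 to 21706 in Tsc2+/- cerebellum and 3008 to 20745 in Tsc2 WT cerebellum, and to 20255 to 27567 in Fmr1-KO and 20402 to 25908 in Fmr1 WT cerebellum. Tsc2 WT mouse 2, Tsc2+/- mouse 1 and Tsc2 WT mouse 1 had the lowest values of both Ttr and Col8a1, in that order. Col18a1 had 448, 481 and 374 on the Tsc2+/- cerebellum arrays and 461, 425 and 469 on the Tsc2 WT ones, an order that did not follow Ttr. The part of choroid plexus in the Col8a1 values was not tested. Without Tsc2+/- mouse 1 and Tsc2 WT mouse 2, the tissue difference of Col8a1 was 0.93, and 8 chains were called, all higher in cerebellum.

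**Figure D3:**
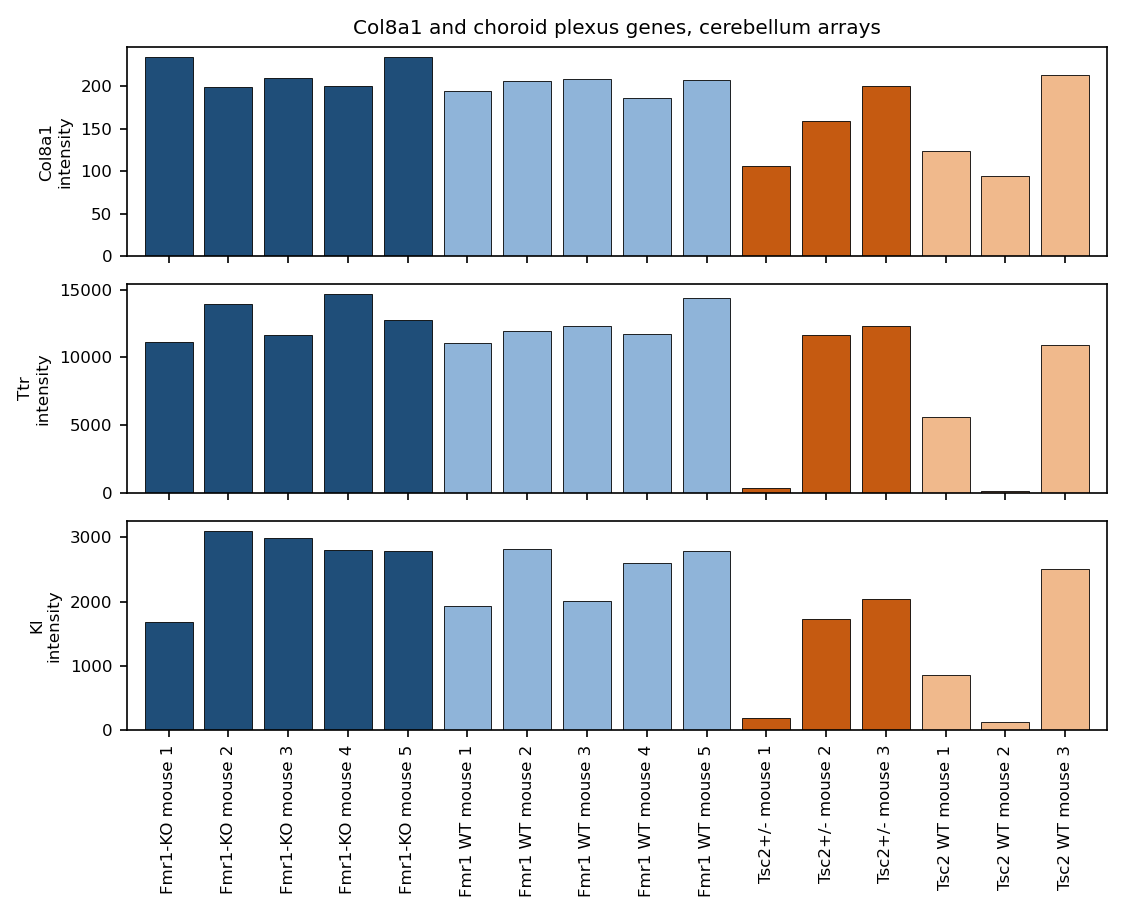
Normalized intensity (linear axes from 0) of Col8a1, Ttr and Kl on each of the 16 cerebellum arrays, 1 bar for each mouse, coloured by group. Tsc2+/- mouse 1 and Tsc2 WT mouse 2 have the shortest bars in all 3 panels, and Tsc2 WT mouse 1 is intermediate for Ttr and Kl.

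In blood, type I collagen was uneven among mice of the same group. Col1a2 had 130.2, 126, 130.1, 481 and 138 in Fmr1-KO blood, 192, 116, 229.7, 116 and 126 in Fmr1 WT blood, 100.4, 253 and 111 in Tsc2+/- blood and 118, 238 and 226 in Tsc2 WT blood, mouse 1 onward. High values occurred in each of the 4 groups. The array of Fmr1-KO mouse 4 was highest for Col1a2 and, at 534, for Col1a1, whose other blood values were 265 to 439. Sparc, a collagen binding matrix protein, was highest on the same array, at 593, and next highest in Tsc2+/- mouse 2 and Tsc2 WT mice 2 and 3, at 493, 438 and 396. Dcn, the fibroblast proteoglycan decorin that binds type I fibrils, was 1801, 982 and 952 on these last 3 arrays and 602 in Fmr1 WT mouse 3, while in Fmr1-KO mouse 4 it was 150.1 and on the other arrays 65.8 to 261. The 14 meninges and fibroblast markers summed to 978 to 3206 in Tsc2+/- blood and 993 to 2152 in Tsc2 WT blood, and to 928 to 1185 in Fmr1-KO and 893 to 1729 in Fmr1 WT blood. The part of these cells in the blood values was not tested. Sparc, Dcn and these arrays were singled out after their values were seen. Without Fmr1-KO mouse 4 the tissue difference of Col1a2 was 1.91, against 1.74 with it.

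**Figure D4:**
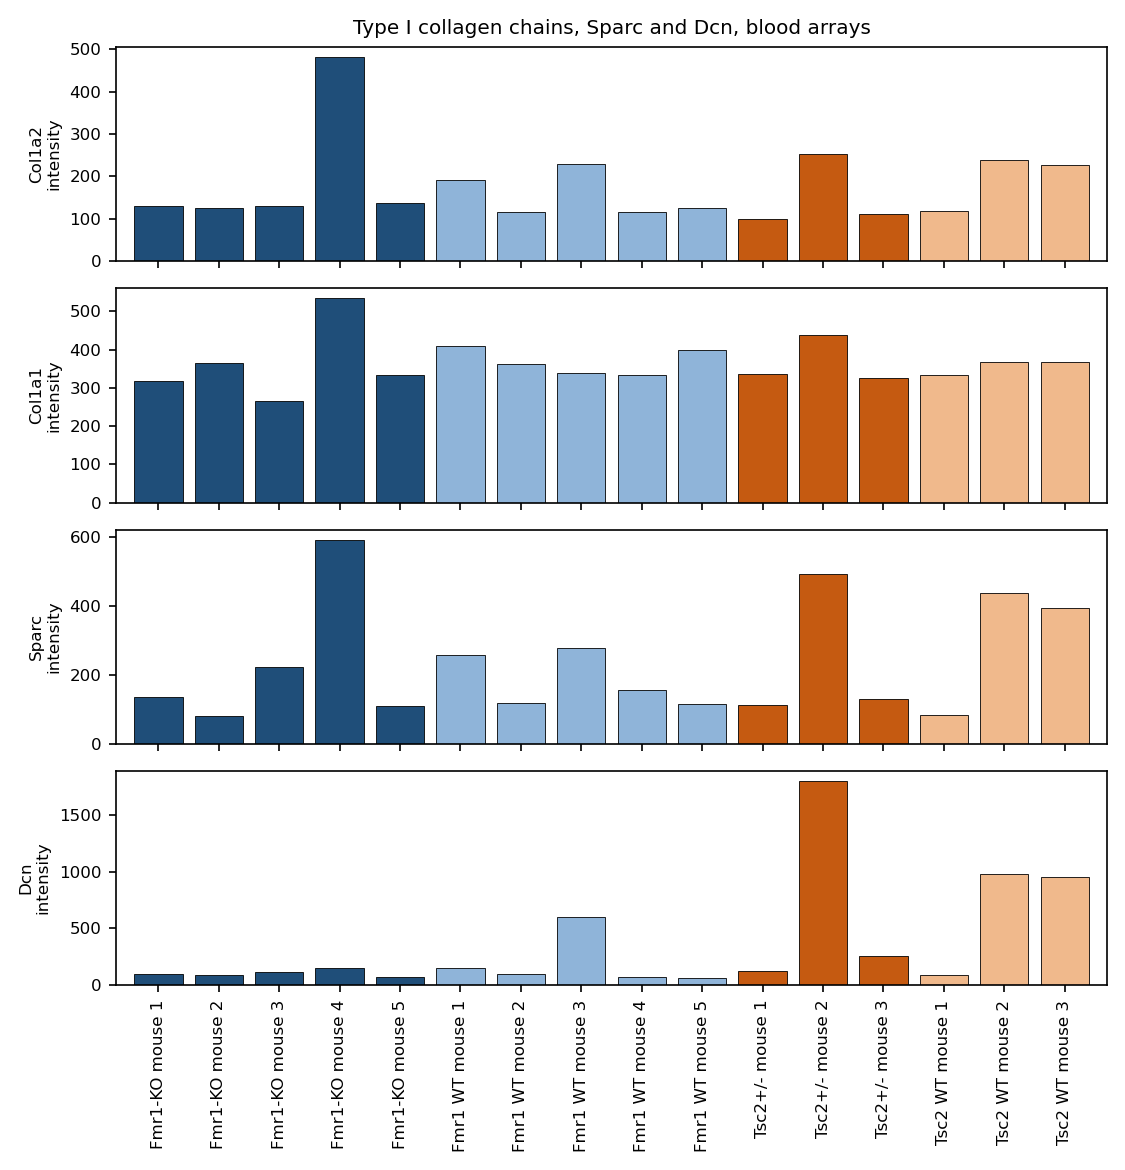
Normalized intensity (linear axes from 0) of Col1a2, Col1a1, Sparc and Dcn on each of the 16 blood arrays, 1 bar for each mouse, coloured by group. Fmr1-KO mouse 4 has the tallest bar for Col1a2, Col1a1 and Sparc and a short one for Dcn, while Tsc2+/- mouse 2 has the tallest for Dcn.

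No collagen chain was listed for genotype in either model, that is, at an unadjusted p under 0.01, the threshold of the study's methods. At an unadjusted p under 0.01, 0 of the 44 chains passed in Fmr1-KO against Fmr1 WT over both tissues, where 0.304% of all probe sets did, and 0 in Tsc2+/- against Tsc2 WT over both tissues, where 0.436% did. Within a tissue the count was also 0, in Fmr1-KO cerebellum (background 0.197%), Fmr1-KO blood (0.582%), Tsc2+/- cerebellum (1.12%) and Tsc2+/- blood (0.298%). At an unadjusted p under 0.05 it was 0 in each of these 6 comparisons too, with backgrounds of 2.73% and 2.86% over both tissues for Fmr1-KO and Tsc2+/-, 1.66% in Fmr1-KO cerebellum, 3.50% in Fmr1-KO blood, 4.94% in Tsc2+/- cerebellum and 2.14% in Tsc2+/- blood. At an adjusted p under 0.05 no chain passed, where 0.00281% of all probe sets did in Fmr1-KO over both tissues, 0.00844% in Fmr1-KO blood, 0.0253% in Tsc2+/- cerebellum and 0 in the other 3. The methods' t-test, with unequal variances, listed 1 chain at 0.01, Col12a1 in Fmr1-KO cerebellum, which did not pass after Benjamini-Hochberg adjustment.

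The smallest p in Fmr1-KO cerebellum belonged to Col12a1 and Col1a2. Col12a1 was 395, 339, 355, 361 and 391 in Fmr1-KO cerebellum and 327, 325, 301, 316 and 332 in Fmr1 WT cerebellum, and Col1a2 was 636, 599, 553, 560.2 and 545 in Fmr1-KO and 394, 494, 545, 521 and 526 in Fmr1 WT cerebellum. For both genes the groups did not overlap, though the nearest Col1a2 values, 545.2 in Fmr1-KO and 544.6 in Fmr1 WT, nearly met. No overlap held for 0.107% of all probe sets in the direction of higher in Fmr1-KO. The differences were 0.20 ± 0.09 (SE) for Col12a1 (limma adjusted p = 0.999) and 0.23 ± 0.12 (SE) for Col1a2 (adjusted p = 0.999). The exact permutation p was 0.00794 for each, the smallest that 5 against 5 mice allow. Centring on the olfactory receptors, whose median was 0.34 higher in Fmr1-KO cerebellum, turned both to -0.19 and -0.16. Without Fmr1 WT mouse 1, whose array had the lowest Col1a2 of the cerebella, the difference of Col1a2 was 0.15. In the Tsc2 model the same chains had 0.03 ± 0.12 (SE) and 0.04 ± 0.13 (SE) in cerebellum, and the difference between the models was 0.17 ± 0.13 (SE) for Col12a1 (limma interaction, adjusted p = 1), the smallest unadjusted interaction p of the 44 chains. At an unadjusted p under 0.01 that test listed 0 chains and 0.487% of all probe sets.

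In Tsc2+/- cerebellum Col15a1, a vessel basement membrane multiplexin, had the smallest p. It was 176, 181 and 173 in Tsc2+/- cerebellum and 171, 141 and 126 in Tsc2 WT cerebellum, with no overlap and a difference of 0.29 ± 0.14 (SE) (limma adjusted p = 0.926). The exact permutation p of 0.1 is the smallest that 3 against 3 mice allow, and 3.07% of all probe sets were higher in Tsc2+/- with no overlap. Col6a3, the long chain of type VI, followed with 163, 166 and 147 in Tsc2+/- and 159.8, 112 and 123 in Tsc2 WT cerebellum, which overlapped. Both Col15a1 and Col6a3 were within the background range: each exceeded the limit on only 1 of the 6 cerebellum arrays of the Tsc2 experiment. In blood the smallest p in Fmr1-KO belonged to Col6a6, at 0.36 ± 0.18 (SE), with 286, 300.1, 291, 238 and 229.7 in Fmr1-KO blood and 223, 216, 138, 212 and 276 in Fmr1 WT blood. The exact permutation p of Col6a6 was 0.0476 before any adjustment, and the groups overlapped. Col11a2 came next, at -0.25 ± 0.16 (SE). In Tsc2+/- blood Col9a1 and Col6a4 came first, at 0.21 ± 0.16 (SE) and 0.19 ± 0.16 (SE). Over both tissues Col6a6 and Col9a2 had the smallest p in Fmr1-KO, at 0.20 ± 0.13 (SE) and 0.23 ± 0.16 (SE), and Col9a2 and Col9a1 in Tsc2+/-, at 0.21 ± 0.10 (SE) and 0.27 ± 0.15 (SE). None of these passed limma's test at an unadjusted p of 0.05. Col9a2, singled out after its values were seen, was higher in all 3 Tsc2+/- blood samples, at 219, 226 and 207, than in Tsc2 WT blood, at 186, 204 and 200.0, as were 4.36% of all probe sets.

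In Fmr1-KO cerebellum the sign of the chains changed with the scaling. Of the 44 chains, 41 lay above 0 in Fmr1-KO cerebellum (median 0.07) and 40 in Tsc2+/- cerebellum (median 0.15), and the olfactory receptor medians there were 0.34 and 0.08. With arrays centred on the olfactory receptors, 0 and 32 chains lay above 0. With arrays centred on their median 27 and 42 did, and with quantile normalization 31 and 42. The median of the chains stayed above 0 under all 4 scalings in Tsc2+/- cerebellum, at 0.08 to 0.17. The genotypes overlapped by array, however. From mouse 1 to mouse 3, the median intensity of the chains was 230, 221 and 193 in Tsc2+/- cerebellum. In Tsc2 WT cerebellum it was 236, 158 and 174, so mouse 1 lay above all 3 Tsc2+/- arrays. Tsc2 WT mouse 2 had the lowest value of all cerebella for 23 of the 44 chains, and Tsc2 WT mouse 3 for 13. The mean of the 3 WT cerebella of the Tsc2 experiment was below that of the 5 of the Fmr1 experiment for 43 of 44 chains. All 3 lay below all 5 for 0 of 44 chains, where 2.45% of all probe sets did so. The median difference was -0.28 for the chains and -0.26 for the olfactory receptors. With olfactory centring 15 chains lay above 0 and the median was -0.04, still below 0 as under the other 3 scalings. No chain was listed at a p under 0.01 in this WT comparison, where 1.29% of all probe sets were, and 6 of 44 had a p under 0.05, all lower in Tsc2 WT, where 8.19% of all probe sets passed and 6.10% were lower. They were Col6a5, Col4a5, Col5a2, Col6a2, Col8a1 and Col13a1, with differences of -0.61, -0.37, -0.39, -0.33, -0.56 and -0.39. Col6a5 was 265, 156 and 165 in Tsc2 WT and 231, 289, 351, 320.2 and 268 in Fmr1 WT cerebellum, a difference of -0.61 ± 0.21 (SE) (exact permutation p = 0.0357, of at least 0.0179 possible). Without Tsc2 WT mouse 1, 9 chains were listed, all lower in Tsc2 WT. In blood 0 chains were listed between the WT groups, where 12.0% of all probe sets were, and 1 of 44, Col6a2, had a p under 0.05, where 29.0% did. At an adjusted p under 0.05 no chain passed between the WT groups, where 0.00562% of all probe sets did in cerebellum and 0.132% in blood. Col6a2 and Col19a1 had the smallest p there, at -0.36 ± 0.15 (SE) and -0.37 ± 0.16 (SE). Strain and experiment cannot be told apart in this comparison.

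**Figure D5:**
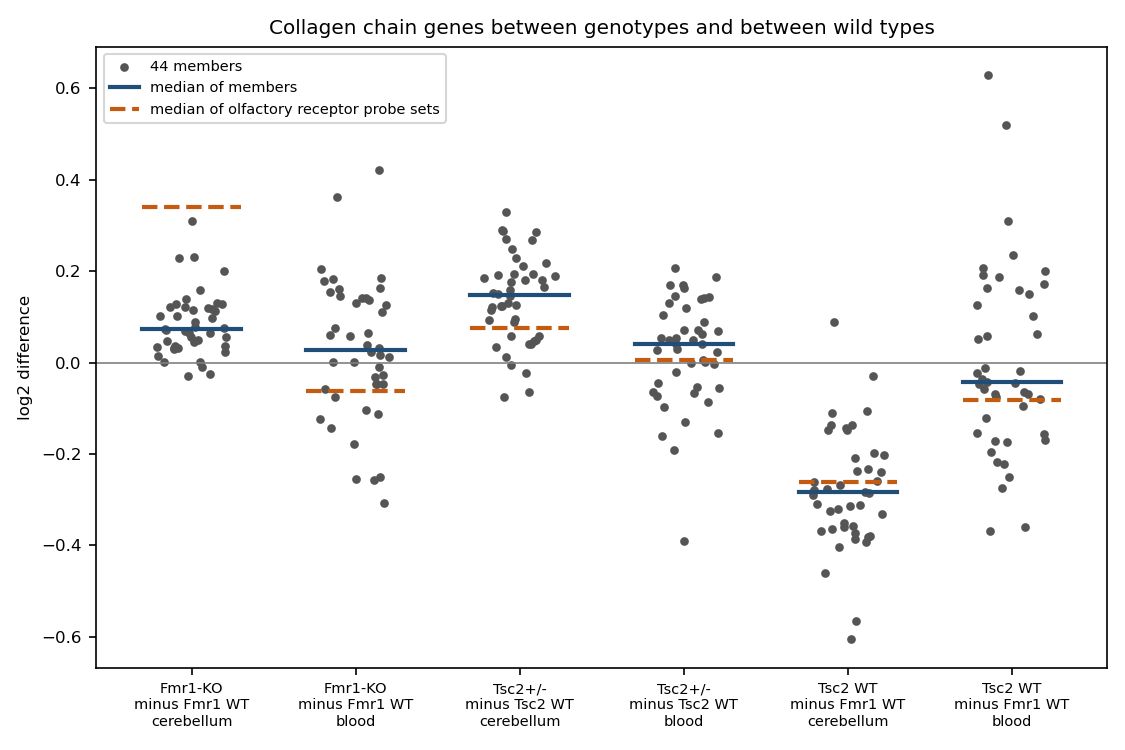
Log2 difference of each of the 44 collagen chain genes (points) between genotypes and between the WT groups, by tissue, with the median of the chains as a blue line and that of olfactory receptor probe sets as a dashed orange line. No point passes an unadjusted p of 0.01, and in cerebellum of Tsc2 WT against Fmr1 WT both medians lie below 0.

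Chains that share a trimer or a fibril varied together across the 16 cerebellum arrays, and so did most pairs of chains. The median correlation over all 946 pairs of the 44 chains was 0.84, and 0.82 without the array of Fmr1-KO mouse 1. Per array, the median of the chains went with the olfactory receptor median (r = 0.80, rho = 0.84, Benjamini-Hochberg adjusted permutation p = 5.50e-05 and 3.02e-04, 11 relations computed; r = 0.80 without the 2 arrays farthest from the median). Col1a1 and Col1a2 gave r = 0.87 and rho = 0.74 (adjusted permutation p = 5.50e-05 and 0.00209), 0.71 without the 2 farthest arrays and 0.80 on deviations from group means. The head-to-head pair Col4a1 and Col4a2 gave r = 0.84 and rho = 0.83 (adjusted permutation p = 9.43e-05 and 3.48e-04), and 0.59 without the 2 farthest. Col4a3 with Col4a4 gave r = 0.93 and rho = 0.92 (adjusted permutation p = 2.75e-05 and 7.33e-05), and 0.92 without the 2 farthest. Neither chain of this pair exceeded the background limit on any cerebellum array, so the correlation is between signals within the background range. Of the 10 pairs Col1a2 with Col3a1 was lowest, at r = 0.48 and rho = 0.44 (adjusted permutation p = 0.0609 and 0.0915). Its r was 0.27 without the 2 farthest arrays, 0.74 over the 10 arrays of the Fmr1 experiment, -0.23 over the 6 of the Tsc2 experiment and 0.85 relative to each array's olfactory median. On that last scale the median over all 946 pairs was 0.90, and Col8a1 with Col8a2 was the lowest of the 10 pairs, at 0.73. On the deposited values Col8a1 with Col8a2 was next, at r = 0.54 and rho = 0.61 (adjusted permutation p = 0.0321 and 0.0156), with 0.31 without the 2 farthest and 0.22 on deviations from group means. The remaining 5 pairs had r between 0.75 and 0.90. The array of Fmr1 WT mouse 1 was lowest of the 5 Fmr1 WT cerebella for 41 of 44 chains, while Dcn, at 1102, and Sparc, at 9410.3, were highest there of all 16 cerebella.

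Genes that make, modify and bind collagen were also compared between tissues. Of 29 measured genes of collagen synthesis and processing, 18 were higher and 5 lower in cerebellum in the Fmr1 experiment, and 13 higher and 5 lower in the Tsc2 experiment. Of all probe sets, as given above, 51.8% were higher and 20.0% lower in the first and 31.0% higher and 26.4% lower in the second, beside which each list here is to be read. Bmp1, the protease that trims the C-terminal propeptide of fibrillar procollagens, was higher by 3.90 ± 0.12 (SE) and 3.70 ± 0.15 (SE) in the Fmr1 and the Tsc2 experiment. Creb3l1, a transcription factor that drives type I collagen in bone, was lower, with a difference of -1.72 ± 0.08 (SE) in the first. Of 15 basement membrane partners, 14 were higher in the Fmr1 experiment, with 9 in the Tsc2 experiment, none lower. The laminin chain Lama2 differed by 3.62 and 3.67, and Lamb1 by 2.23 and 2.16. Of 9 collagen binding proteoglycans, 8 were higher and 1 lower in the Fmr1 experiment, with 6 higher and 1 lower in the Tsc2 experiment. Prelp and Fmod, leucine-rich repeat proteins that bind type I fibrils, differed by 3.95 and 3.87 in the Fmr1 experiment. Of 10 collagen receptors, 6 were higher and 4 lower in the Fmr1 experiment, led by the platelet integrin chain Itga2 at -5.37 and the receptor kinase Ddr1 at 3.06, and 3 were higher and 3 lower in the Tsc2 experiment. The median differences of these 4 lists in the Fmr1 experiment were 0.62, 0.96, 2.50 and 0.51, against 0.36 for the collagen chains and 0.52 over all probe sets.

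Most single markers of the cells that make collagen were higher in cerebellum, but their summed level was not in every case. In the Fmr1 experiment 14 of 14 meninges and fibroblast markers, 10 of 12 endothelial and 9 of 11 mural cell markers were higher in cerebellum, and in the Tsc2 experiment 12, 10 and 9. The 11 mural cell markers summed to 4579 to 5785 in Fmr1-KO cerebellum and 4742 to 5772 in Fmr1 WT cerebellum, and to 4999 to 6534 in Tsc2+/- and 4631 to 6192 in Tsc2 WT cerebellum. The 14 meninges and fibroblast markers summed to 4724 to 5944 in Fmr1-KO and 4248 to 5957 in Fmr1 WT cerebellum, and to 3727 to 4789 in Tsc2+/- and 3031 to 5380 in Tsc2 WT cerebellum. The 12 endothelial markers summed to 3791 to 5356 in Fmr1-KO cerebellum and 3808 to 4912 in Fmr1-KO blood, to 4210 to 5097 in Fmr1 WT cerebellum and 4532 to 6035 in Fmr1 WT blood, to 4127 to 5254 in Tsc2+/- cerebellum and 1915 to 3365 in Tsc2+/- blood, and to 4074 to 5317 in Tsc2 WT cerebellum and 1877 to 4908 in Tsc2 WT blood. Cerebellum and blood thus overlapped in endothelial sum in 3 of these 4 pairs, all but Tsc2+/-. The ranges of the genotypes overlapped in each pair of cerebellum groups. The part of these cells in the collagen differences was not tested. Between genotypes, the collagen related genes at an unadjusted p under 0.01 were Pcolce, which enhances the trimming by Bmp1, and Agrn, a basement membrane proteoglycan, both lower in Fmr1-KO blood, with differences of -0.65 ± 0.19 (SE) and -1.07 ± 0.32 (SE), with adjusted p = 0.955 for each.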

How the data were processed

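The deposited values were normalized intensities on a linear scale, which the authors made with PLIER in Affymetrix Power Tools per the labels; versions and genome build are not given in the sources used here. The array data covered blood and cerebellum of 16 mice on 35556 probe sets, of which 21789 had 1 gene symbol in the platform annotation, 1621 several and 12146 none; only the first were named. The number of arrays limits the precision. Intensities were taken to log2 without further scaling and tested with limma 3.58.1 in R 4.3.3 (lmFit and eBayes) over all probe sets, with Benjamini-Hochberg adjustment. Tissue was tested within each experiment with genotype as a covariate, genotype with tissue as a covariate or within a tissue, and chains were called by tissue at an adjusted p under 0.05 and listed by genotype at an unadjusted p under 0.01. Mice are separate animals per the labels. Single values were also tested by exact two-sided permutation of mice, and correlations with 100000 two-sided permutations (numpy 2.4.6, scipy 1.17.1, Python 3.11.15).

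The chains, gene lists and tests were chosen with earlier results of these data known. Named chains were the 8 called with the largest tissue difference in the Fmr1 experiment, the 2 smallest p of each other comparison, the partners in the 10 pairs and the leading chain of each class; others are named to account for calls. Alternatives were an offset or a floor of 16, quantile normalization within tissue, median centring, olfactory receptor centring, a filter at 64 on 3 arrays, a trended or unmoderated variance, the mean over probe sets, 1 fit of all 32 arrays, the mouse or its number as a block, the methods' t-test, and leaving out each mouse. The fits were checked on simulated data.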

Additional observations from a re-analysis of the deposited data

Results flagged for a closer look

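Of 112 sets of 5 arrays tested, 1 for each of 28 named chains in each Fmr1 group, 13 had a mouse far from the rest by Dixon's criterion, where chance alone flags about 1 in 20, here 5.6. In Fmr1 WT cerebellum, Col19a1 was 145 in Fmr1 WT mouse 1, against 193 to 204 in the other mice of the group. Col4a2 was 175 in Fmr1 WT mouse 1, against 218 to 238 in the other mice of the group. Col6a6 was 225 in Fmr1 WT mouse 1, against 307 to 338 in the other mice of the group. Col9a2 was 218 in Fmr1 WT mouse 1, against 273 to 294 in the other mice of the group. Col9a3 was 370.0 in Fmr1 WT mouse 1, against 478 to 521 in the other mice of the group. All of these were low values of the same mouse. In Fmr1-KO cerebellum, Col4a6 was 150.1 in Fmr1-KO mouse 1, against 94.8 to 107 in the other mice of the group. Col5a2 was 198 in Fmr1-KO mouse 1, against 107 to 124 in the other mice of the group. Both came from the array with the highest olfactory receptor signal. In Fmr1-KO blood, Col1a2 was 481 in Fmr1-KO mouse 4, against 126 to 138 in the other mice of the group. Col4a3 was 124 in Fmr1-KO mouse 4, against 153 to 165 in the other mice of the group. Col8a2 was 76.9 in Fmr1-KO mouse 4, against 163 to 197 in the other mice of the group. Col9a3 was 143 in Fmr1-KO mouse 3, against 298 to 354 in the other mice of the group. Mouse 4 was thus high for Col1a2 and low for Col4a3 and Col8a2. In Fmr1 WT blood, Col11a2 was 246 in Fmr1 WT mouse 5, against 162 to 181 in the other mice of the group. Col9a2 was 80.2 in Fmr1 WT mouse 3, against 184 to 233 in the other mice of the group. No difference between the Fmr1 and Tsc2 effects in cerebellum passed limma's interaction test at an unadjusted p under 0.01 for any chain.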

How the results depend on the processing

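Of 198 recomputed counts of called or listed chains, 183 stayed within 1.5 times the value reported and 15 did not, and of 819 recomputed differences of chains called by tissue 719 kept direction and call, 82 lost the call and 18 changed sign. Centring on olfactory receptors and leaving out the mice low in choroid plexus markers were chosen after seeing the data. In the Fmr1 experiment 10 chains were called by tissue after olfactory centring. In the Tsc2 experiment 31 were called after quantile normalization within tissue, 24 after olfactory centring, 8 without Tsc2+/- mouse 1 and Tsc2 WT mouse 2, and 9 to 13 leaving out each mouse, the 9 without Tsc2+/- mouse 1. In Fmr1-KO cerebellum 1 chain, Col12a1, was listed by the linear model without moderation and 1, again Col12a1, by the methods' t-test. Over both tissues Tsc2+/- against Tsc2 WT listed 0 to 1 leaving out each mouse, with Col9a1 the 1 without Tsc2 WT mouse 1. Between the WT cerebella 1 (Col6a5) was listed with all 32 arrays in 1 fit and 0 to 9 leaving out each mouse, the 9 without Tsc2 WT mouse 1, with Col6a6 alone without Fmr1 WT mouse 1 and Col8a1 alone without Tsc2 WT mouse 3. Between the WT bloods 1 (Col6a2) was listed after quantile normalization and after median centring, and 1 (Col18a1) with all arrays in 1 fit. With arrays centred on the median, the Fmr1 tissue difference was -0.12 for Col16a1, -0.29 for Col17a1, -0.30 for Col19a1, -0.27 for Col20a1, -0.012 for Col25a1, -0.067 for Col3a1, -0.050 for Col4a2, -0.18 for Col5a1, -0.053 for Col5a3, -0.28 for Col6a1, -0.19 for Col6a3, -0.17 for Col6a6, -0.10 for Col9a1 and -0.078 for Col9a2. With olfactory centring it was -0.020 for Col17a1, -0.034 for Col19a1 and -0.017 for Col6a1, and -0.0029 for Col20a1. The cause was not tested.

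With the mouse as a replicate block, tissue called 26 chains in the Fmr1 experiment, with 12 in the Tsc2 experiment, while 0 were listed in the genotype comparisons that allow a block; it changed no genotype call. The deviations of the 2 tissues of a mouse correlated at -0.07 to 0.08. Those of same-numbered mice of 2 genotypes correlated at -0.09 to 0.23. Since even arrays of the same mouse hardly correlated, these values cannot show whether the numbers pair mice across genotypes. Signals near the olfactory receptor background limit what the dim chains can show.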
